A study of Chlorocebus sabaeus with 4 samples.

Results

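The comparison described here is that of 2 samples, labelled corpus luteum, of a vervet monkey (Chlorocebus sabaeus) fed ad libitum, sample 2 against sample 1. They are 2 of the 4 arrays of the study, and were chosen by the diet and the sample number in the labels. The animal, monkey 1030, was an adult female of 16 years whose 2 samples were to serve as its own control for a change in weight. The other 2 arrays are samples 1 and 2 of monkey 1031, a female of the same age on calorie restriction. No genetic alteration or agent is named for either animal, and the labels do not say which sample number was collected first. Total RNA of frozen luteal tissue was amplified, labelled and hybridised to arrays of human probe sets, with 1 array per sample. Each side of the comparison is therefore 1 array of 1 animal, there is no replicate check, and no p-value is given.

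The corpus luteum forms from the ovulated follicle and is among the most heavily vascularised tissues of the body. Its steroidogenic cells take up cholesterol and secrete progesterone, and they also secrete proteins that act on vessels, stroma and immune cells. When the gland regresses, secretion declines, the matrix is remodelled and macrophages enter. Transporters, secreted factors and transcription factors of this tissue are described below because the steroidogenic genes are only part of what separated the 2 samples.

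The values are log2 signals. A gene was represented by its brightest probe set over the 4 arrays, and 9888 of 19775 genes reached the median of those means, a log2 signal of 5.26. A gene was called higher or lower where sample 2 was at least 2-fold from sample 1, which is a rule of size. The median signal over all probe sets was 3.96 in sample 1 and 4.00 in sample 2. The bacterial hybridisation controls averaged 10.58 in sample 1 and 9.85 in sample 2, against 10.09 and 10.54 in the calorie restriction animal, and their part in the results was not tested. The 3' minus 5' difference of the GAPDH control probe sets was 1.29 and 1.15, and that of ACTB was 1.61 and 1.65. Sample 2 stood apart from the other arrays. It differed 2-fold from the calorie restriction samples in 912 and 1031 genes, whereas sample 1 differed from them in 333 and 232.

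The tissue label was checked against markers of luteal steroidogenic cells. All 10 that were measured passed the level filter, and their summed linear signal was 31286 in sample 1 and 4354 in sample 2, with 9 of 10 lower. The calorie restriction samples lay between them, at 12828 and 20640. The marker lists of other cells gave the following, and their counts take in markers below the level filter. No B and plasma cell or neutrophil marker was past 2-fold, but only 1 of 9 and 1 of 10 passed that filter. The summed signal of 15 endothelial markers was 3150 and 1493 (7 lower, none higher), that of 13 macrophage markers 3765 and 5285 (2 higher, 1 lower), and that of 14 smooth muscle and pericyte markers 12732 and 17449 (3 higher, 2 lower). That of 9 granulosa markers was 9046 and 9463 (4 higher, FSHR, INHBB, FST and GATM, and 2 lower, INHBA and NR5A2). The 4 higher ones gave 1.21 to 2.29, and FSHR was below the level filter. The lower ones changed more, INHBA by -3.42 and NR5A2 by -3.07. The summed signal of 11 fibroblast and stroma markers was 30535 and 22821 (2 higher, 2 lower), and that of 6 red cell markers 3450 and 1534 (1 lower). For 8 nerve and Schwann markers it was 1498 and 611 (2 lower), and for 11 surface epithelium markers 702 and 470 (2 lower). For 7 adipocyte markers it was 167 and 281 (1 higher), and for 5 mast cell markers 445 and 310 (1 higher, 1 lower). For 14 T and NK cell markers it was 640 and 510 (1 lower). That of 6 theca and interstitial markers was 4117 and 8755 (5 higher), and that of 12 oocyte markers 298 and 993 (4 higher, none lower). Of the 4 higher oocyte markers, FIGLA and OOEP were below the level filter. The oocyte genes ZAR1 and ZP4 read 4.42 and 4.65 in sample 1, and 8.12 and 8.30 in sample 2. In the calorie restriction animal they read between 4.13 and 4.68. The markers therefore bore out the luteal label less well in sample 2 than in sample 1. No endothelial, macrophage, smooth muscle or theca marker lay under the 25th percentile of all genes (3.55) in all 4 arrays. The oocyte markers BMP15 and DAZL did, as did 5 neutrophil and 3 B and plasma cell markers. The same held for 1 marker each of the T and NK cell, adipocyte, nerve, red cell and surface epithelium lists. In tissue RNA, fewer cells of a type and less RNA per cell cannot be told apart. Whether the 2 samples held the same parts of the ovary was not tested.

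Sample 2 had 264 genes higher, 2.67% of those past the filter, and 651 lower, 6.58%. Together they made 9.25%. Between the calorie restriction animal's samples, 49 genes (0.496%) were higher and 73 (0.738%) lower. Decreases in the ad libitum animal were also larger, with 47 genes at least 8-fold lower and 4 at least 8-fold higher. After a repeat of quantile normalisation on the deposited values the split was 348 higher and 543 lower, so that 60.9% of the genes past 2-fold were lower in place of 71.1%. The interquartile range of all changes was -0.35 to 0.28, wider than the -0.20 to 0.15 between the calorie restriction animal's samples. The median change was -0.01.

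**Figure D1:**
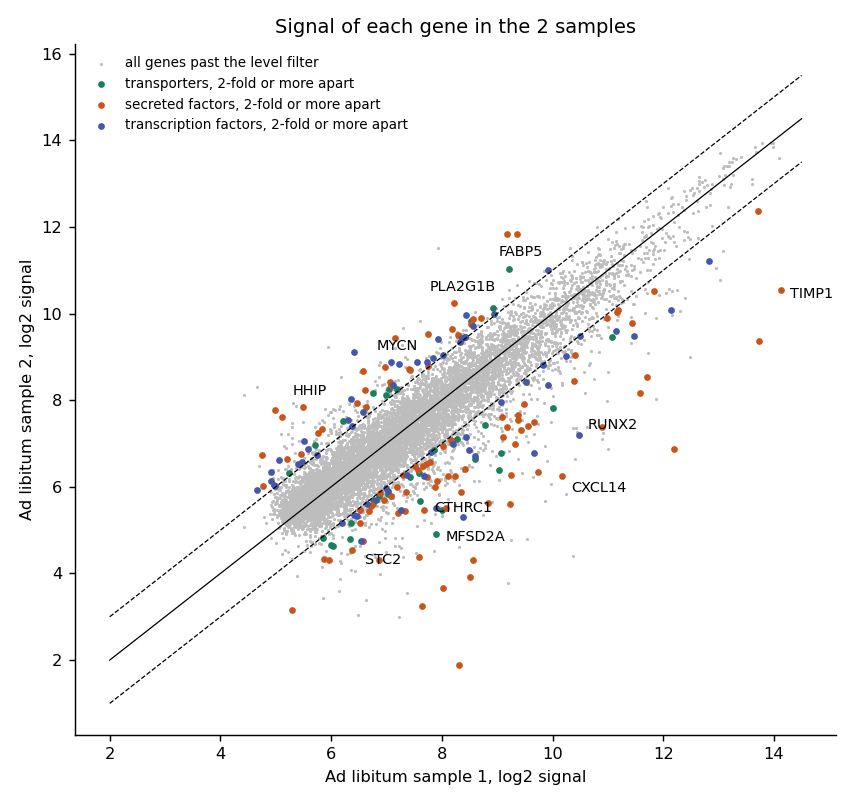
Log2 signal of each of the 9888 genes past the level filter in sample 1 (horizontal axis) and sample 2 (vertical axis) of the ad libitum animal. The solid line marks equal signal and the dashed lines a 2-fold difference; coloured points are transporters, secreted factors and transcription factors at least 2-fold apart, and secreted factors make up many of the points far below the line.

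More of the genes that differed were set apart by sample 2 than by sample 1. Of the 651 lower genes, 615 had their lowest signal of all 4 arrays in sample 2, and 336 were also at least 2-fold below both calorie restriction samples. Of the 264 higher genes, 258 had their highest signal there and 156 were 2-fold above both. The genes were chosen by sample 2 against sample 1, which favours the rank counts of 615 and 258. By the same 2-fold measure as the 336 and 156, sample 1 lay above both calorie restriction samples for 45 of the lower genes. It lay 2-fold below both for 3 of the higher ones. The lower genes were commoner among bright genes. With the genes in 4 bins of 2472 by mean signal, 2.91% were lower and 3.11% higher in the dimmest bin, and in the brightest 9.43% were lower and 2.06% higher.

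Probe sets of 1 gene read different stretches of its transcripts, so their agreement shows whether a change rests on 1 set of probes. They share the array and the RNA and are not replicates. Of the 915 genes past 2-fold, 585 had a single probe set past the filter and could not be checked in this way. Of the other 330, all further probe sets had the same direction in 299 (90.6%), and the second brightest was itself at least 2-fold in that direction in 173 (52.4%). Among the 3013 genes with 2 or more such probe sets whose brightest was under 2-fold, these shares were 64.9% and 4.25%. Much of the agreement in direction was therefore also found in genes that changed little. Agreement by the 2-fold measure grew with the size of the change, which a fixed cut favours. The second probe set was past 2-fold in 41.8% of genes between 2-fold and 3-fold, in 69.2% of those between 3-fold and 4-fold, and in 81.1% of the 53 beyond 4-fold. All further probe sets had the same direction in 88.0%, 96.2% and 96.2% of these genes. The second probe set was past 2-fold for 35.1% of 77 higher and 57.7% of 253 lower genes. The increases were also smaller, with a median size of 1.19 against 1.35 in the brightest probe set.

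**Figure D2:**
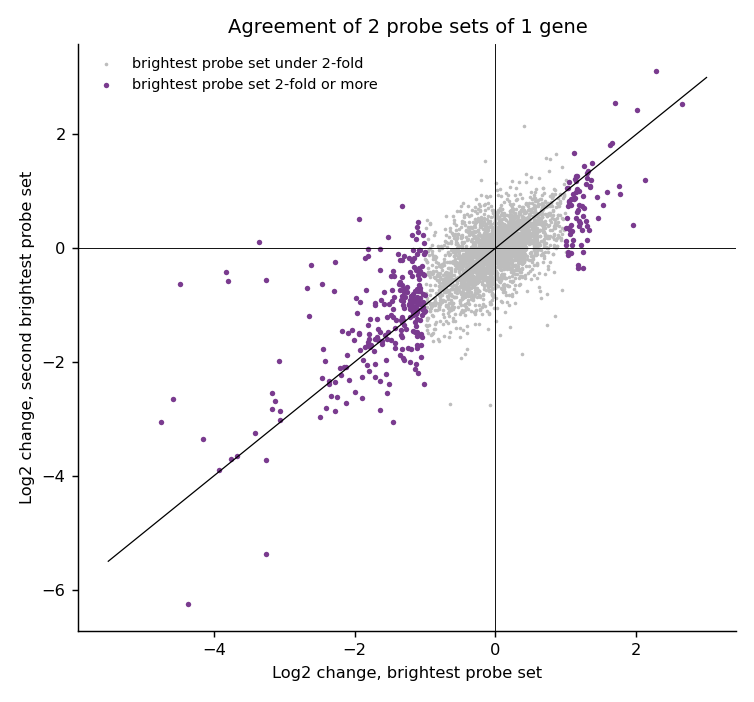
Log2 change from sample 1 to sample 2 in the brightest (horizontal axis) and the second brightest (vertical axis) probe set, for the 3343 genes with 2 or more probe sets past the level filter. Purple points are the 330 genes whose brightest probe set was at least 2-fold apart; the line marks equal changes, and no purple point lay at 2-fold or more in the opposite direction.

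Across the 3343 genes with 2 such probe sets the changes of the brightest and the second were correlated (Pearson's r 0.73, Spearman's rho 0.65), which is given as a description, since genes of the same arrays are not independent. The median absolute difference between them was 0.25. The 10 genes beyond 4-fold whose second probe set stayed under 2-fold were CCDC134, ZDHHC19, OPN3, CYP3A4, VSX1, ABHD2, MTUS2, EHD3, CHRM3 and P4HA2, singled out here after their values were seen. The opsin OPN3, for example, read -3.80 and -0.57, and CYP3A4, a drug and steroid hydroxylase, -3.35 and 0.10. One gene, SYNCRIP, an RNA-binding protein, had probe sets past 2-fold in both directions, at 1.20 and -1.02, and its brightest read -0.20.

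Some genes were low in sample 2 by every probe set past the filter. The transcription factor RUNX2, the master regulator of bone formation that luteinising granulosa cells also make, had log2 signals of 10.47 in sample 1 and 7.21 in sample 2. The calorie restriction samples read 10.80 and 10.24. Its 3 probe sets gave -3.27, -5.37 and -5.47, so the brightest gave the smallest change. CXCL14, a chemokine, read 10.17 and 6.25 (15.2-fold lower), against 8.05 and 9.33 in the other animal, and its second probe set gave -3.90. Sample 2 was the lowest of the 4 arrays for both genes. LIMCH1, which binds non-muscle myosin, gave -3.05, -3.02 and -2.98 in 3 probe sets. The adenovirus receptor CXADR, a junction protein, gave -3.07 and -2.87, and PPIF, the cyclophilin of the mitochondrial permeability pore, gave -3.14 and -2.68. The surface peptidases DPP4 (-2.34 and -2.60) and ENPEP (-2.28 and -2.87) were also lower by both probe sets, as were LRP8, KCNK3 and FAM107B.

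Fewer genes were high by every probe set, and by smaller amounts. BCL11A, a zinc-finger repressor of blood cells, read 5.50 in sample 1 and 7.51 in sample 2, with 6.12 and 5.49 in the other animal, and gave 2.01 and 2.43. XDH, xanthine dehydrogenase, which makes uric acid, gave 1.70 and 2.56. RRAGD, a GTPase that recruits mTORC1 to lysosomes, gave 1.66 and 1.85, and DDAH2, an enzyme of the dimethylarginine pathway, gave 1.30, 1.33 and 1.17. The kinase WNK3, LRRN3, MYO15B, ABCC5, CABYR and SBK1 completed the 10, with the smaller of their changes between 1.15 and 1.63. Averaging all probe sets of a gene left 152 genes higher in place of 264. Of the genes named here that passed both the filter and 2-fold, 229 in number, 82 came under 2-fold in that average, which takes in dim probe sets. When probe sets whose names end in _s_at or _x_at, which can match more than 1 transcript or gene, were left out, 194 of 230 named genes were still measured and 15 of them turned direction. These were UGP2, ABCC3, ACAN, F5, FCGR2C, FUBP1, GALNT2, GATM, GDF15, GSTM3, HOPX, P3H2, PTN, SEC23B and TUSC3, so their direction rests on probe sets of that design. In all, 130 genes were at least 2-fold lower and 23 at least 2-fold higher by every probe set past the filter.

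The genes were next grouped by family names into 10 functional classes, which held 2518 of the 9888 genes. Among them 128 were higher and 271 lower. The share lower was 22.1% of 321 secreted factors, 15.7% of 121 adhesion and junction genes, 13.8% of 320 metabolic enzymes and 13.2% of 212 receptors, beside 6.58% of all genes. It was 9.59% of 219 transporters and 4.90% of 612 transcription factors. In transcription factors, 32 higher and 30 lower, and in the few non-coding RNAs, lower genes did not outnumber higher ones; in the other classes they did. These shares are descriptions, and a share beside that of all genes is no test.

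**Figure D3:**
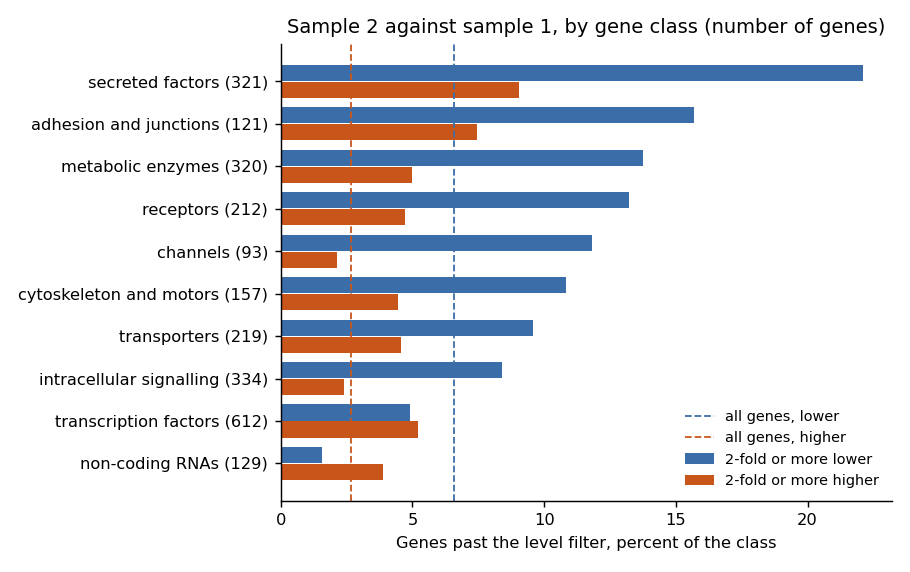
Percent of the genes of each class past the level filter that were at least 2-fold lower (blue) or higher (orange) in sample 2 than in sample 1 of the ad libitum animal, with the number of genes in brackets. Dashed lines give the shares over all genes, 6.58% lower and 2.67% higher; secreted factors have the longest bars in both directions.

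Transporters carry nutrients, ions and lipids across membranes. Of 436 on the array 219 passed the filter, with 10 higher, 21 lower and a median change of -0.07. Of the 217 below it, 3 were higher and 2 lower. The largest decrease was in MFSD2A, which imports lysophosphatidylcholine with its polyunsaturated fatty acids. It read 7.90 in sample 1 and 4.92 in sample 2, and 5.74 and 6.08 in the other animal, so that sample 1 was the highest and sample 2 the lowest of the arrays. SLC44A3, a choline transporter-like protein, read 9.04 and 6.39 (6.27-fold lower), against 8.14 and 7.95.

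Ion pumps had 4 lower (16.7%) and 1 higher (FXYD1, 1.06) of 24, beside 6.58% and 2.67% of all genes. ATP2B4, a calcium pump of the plasma membrane, read 10.01 and 7.83 (-2.18), and its second probe set gave -1.45. Its relative ATP2B1 gave -1.36, -0.60 and -2.02 in 3 probe sets. The sodium-phosphate cotransporter SLC20A1 read 8.59 and 6.65, with 8.33 and 8.80 in the other animal. The zinc exporter SLC30A1 read 11.07 and 9.45 (second probe set -1.63), with 10.69 and 10.99, so that for both the calorie restriction samples lay close to sample 1. SLC30A1 was the 1 of 21 metal carriers (4.76%) past 2-fold, beside 6.58% of all genes lower. Carriers of nucleotide sugars and similar cargo had 6 of 27 lower, among them SLC35F5 (-2.29), SLC35D1 (-1.28), which feeds chondroitin synthesis, and SLC35B4 (-1.18). For SLC35F5 the mean over all probe sets was -1.07, and for MFSD2A it was -1.57.

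The 10 transporters that were higher belonged to 8 of the 13 groups of the class, with 3 of them, FABP5, FABP4 and CD36, among 13 fatty acid and lipid carriers. FABP5, a cytosolic fatty acid carrier counted with this class, read 9.22 in sample 1 and 11.03 in sample 2 (3.51-fold), with 8.95 and 8.28 in the other animal. FABP4, the fatty acid carrier of adipocytes and macrophages, read 6.22 and 7.53, and 4.70 and 4.64 in the other animal. The fructose carrier SLC2A5 (1.42), the nucleotide exporter ABCC5 (1.30 and 1.23 by 2 probe sets), the nucleoside carrier SLC29A3 (1.24) and the lysosomal peptide carrier SLC15A3 (1.22) followed. The glutamate carrier SLC1A3 (1.06) and the mitochondrial carrier SLC25A27 (1.12) were the others. For SLC2A5 the mean over 4 probe sets was 0.53. For ATP8B1 and ABCC3, both lower by the brightest probe set (-1.94 and -1.19), another probe set past the filter gave 0.52 and 0.23.

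Ion channels had 2 higher and 11 lower of 93 past the filter, out of 314 measured. These shares were 2.15% and 11.8%, beside 2.67% and 6.58% of all genes, so that the share higher was near that of all genes. Of the 11, 5 were potassium channel subunits. KCNE3, an accessory subunit, read 9.38 and 6.65 in the ad libitum samples, and 9.28 and 9.21 in the other animal. KCNQ1, a pore-forming partner of KCNE3, was lower too (-1.58, second probe set -0.98). KCNK3, an acid-sensitive leak channel, gave -2.41, -2.81 and -4.60 in 3 probe sets. KCNJ8, the pore of vascular ATP-sensitive potassium channels, gave -2.67, and KCNK1, another leak channel, -1.73. The touch channel PIEZO2 read 6.44 and 4.05, although the mean over its 6 probe sets was -0.71. GJA1, or connexin 43, the main gap junction protein between luteal cells, read 12.16 and 10.52 (3.12-fold lower), beside 12.08 and 12.04. The 2 higher genes were CACNA2D2 (1.53) and CACNB2 (1.12, second probe set 1.67), both accessory subunits of calcium channels.

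Secreted factors were the class with the largest share of genes past 2-fold, 29 higher and 71 lower of 321, beside 2.67% and 6.58% of all genes. Members were gathered by gene symbol, so not every one need be secreted. On the array were 726, and of the 405 below the filter 6 were higher and 15 lower. Their median change was -0.11, so that many changed little while some changed a great deal. In the brightest of the 4 bins, 28 of 81 were lower and 7 higher.

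Among ligands, TGF-beta superfamily members had 5 of 16 lower (31.25%) and 1 higher (6.25%), beside 6.58% and 2.67% of all genes. The inhibin subunit INHBB read 8.29 and 9.51. Besides the inhibin subunits INHA and INHBA they were GDF15, a stress-induced cytokine (-1.87), BMP2 (-1.18) and TGFB1 (-1.01). Growth factors had 6 of 29 lower. TGFA, a ligand of the EGF receptor, read 5.29 in sample 1 and 3.15 in sample 2, and 7.16 and 7.90 in the other animal, so both ad libitum samples were below the other pair. HBEGF, of the same ligand family as TGFA, gave -1.85, and the platelet-derived PDGFB and PDGFA gave -1.18 and -1.09. The growth factor higher was PTN, or pleiotrophin (1.44), and among Wnt ligands WNT2B was higher (1.47). Cytokines had 7 of 24 lower and 2 higher. Besides CXCL14, the interferon-induced chemokines CXCL9 (-2.56) and CXCL10 (-1.53), IL15 (-1.23), IL18 (-1.22) and LIF (-1.17) were lower. CXCL12, a chemokine of stromal cells (1.46), and GPNMB, a glycoprotein of macrophages placed here by its symbol (1.51), were higher.

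Extracellular antagonists and binding proteins had 6 lower and 5 higher of 32. IGFBP7, an IGF-binding protein of vessel walls, was among the brightest, at 13.72 and 12.37, with 13.89 and 13.83 in the other animal. IGFBP2 gave -1.10 and FSTL3, an activin antagonist, -1.25. On the higher side stood HHIP, which binds hedgehog ligands outside the cell. It read 5.50 and 7.84 (5.07-fold), against 5.12 and 4.14. The Wnt inhibitors SFRP1 and SFRP2 were higher by both of their probe sets (1.24 and 0.92, 1.28 and 1.13). Hedgehog receptor PTCH1 read 7.60 and 9.82 (2.22) and the hedgehog effector GLI1 5.05 and 6.62 (1.57), although the mean over the 5 probe sets of PTCH1 was 0.65. PTCH1 and GLI1 are also 2 of the 5 theca and interstitial markers that were higher. The summed signal of those markers, 4117 and 8755, moved with these genes, and its part in the result was not tested.

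Peptide hormones had 5 lower and 2 higher of 23. Stanniocalcin-2, STC2, read 7.59 in sample 1 and 4.39 in sample 2 (9.21-fold lower), beside 7.27 and 7.23. SCG5, a chaperone of prohormone convertase, gave -2.15, and NUCB2, the precursor of nesfatin, gave -1.56. FNDC5, the precursor of irisin, was higher by its brightest probe set (1.31) but the second gave 0.15.

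Proteases and their inhibitors had 17 lower and 7 higher of 81. TIMP1, an inhibitor of matrix metalloproteinases that luteal tissue makes in large amounts, read 14.13 in sample 1 and 10.54 in sample 2. In the calorie restriction animal it read 13.32 and 13.84. The change of -3.59 was found in a gene near the top of the signal range, which ended at 14.35. The protease inhibitor SERPINA5 gave -2.98, coagulation factor V, F5, -2.55, the aggrecanase-like ADAMTS12 -2.33, and PAPPA, which cleaves IGF-binding proteins, -1.79. The higher proteases included CTSS, or cathepsin S, a lysosomal protease of antigen-presenting cells, at 7.76 and 9.53 (second probe set 0.95). WFDC1, of a protease inhibitor family, read 6.58 and 8.66 (4.26-fold), with 7.53 and 7.49 in the other animal. ADAMTSL1 gave 1.97, but sample 1 was the lowest of the arrays and the mean over its 6 probe sets was 0.24.

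Matrix proteins split in both directions, with 17 lower and 6 higher of 67. CTHRC1, a collagen-associated protein, read 9.23 and 5.59 (12.4-fold lower), with 10.92 and 10.66 in the other animal. The thrombospondin THBS4 (-3.51) and the connective tissue growth factor relative CCN5 (-3.41) were lower in sample 2 than in each other array by a similar amount. CCN2, connective tissue growth factor itself, gave -1.95, the collagen cross-linker LOXL2 -2.17, the hyaluronan-binding TNFAIP6 -2.45, and the proteoglycan ACAN -1.81, -1.69 and -1.41 in 3 probe sets. The mean over all probe sets of LOXL2 was -0.55. Microfibril genes went different ways: MFAP4 (1.61) and MFAP2 (1.31) were higher and MFAP5 (-1.89) was lower. MFAP4 was higher in both ad libitum samples (6.61 and 8.23) than in the other animal (4.21 and 4.20).

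Secreted lipid enzymes and apolipoproteins had 4 lower and 3 higher of 21. PLA2G1B, a secreted phospholipase A2, read 8.23 and 10.23 (4.01-fold), beside 8.58 and 7.43, and the phospholipid transfer protein PLTP gave 1.37. APOA1, the protein of HDL, gave -1.64 and -1.47 in 2 probe sets, and PON2, an antioxidant lactonase placed here by its symbol, -1.94 and -1.51.

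**Figure D4:**
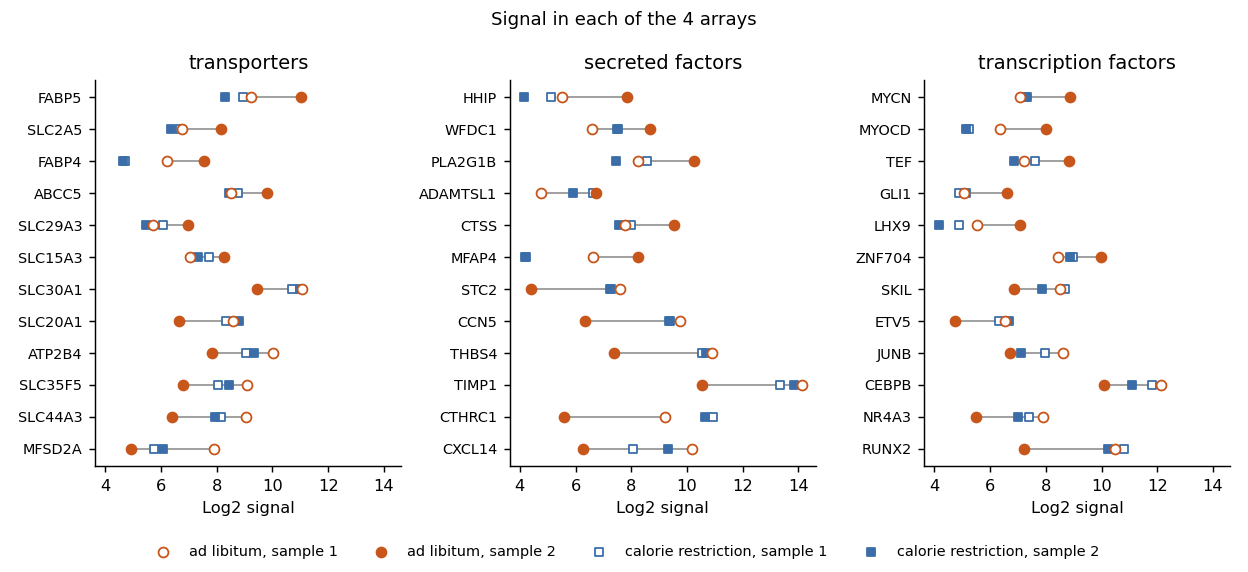
Log2 signal in each of the 4 arrays for the 6 genes with the largest increase and the 6 with the largest decrease among transporters, secreted factors and transcription factors, by the rule given under processing. Circles are the ad libitum animal (open, sample 1; filled, sample 2), joined by a line, and squares the calorie restriction animal; for most genes the filled circle lies apart from the other 3 symbols, while for HHIP, MFAP4, MYOCD, LHX9, FABP5, SLC2A5 and FABP4 both circles lie above both squares and for CTHRC1 both lie below.

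Transcription factors had a positive median change, 0.19, beside -0.01 for all genes. Of 612 past the filter, out of 1191, 412 had a positive change and 199 a negative one, and 32 were higher and 30 lower. Below the filter 16 were higher and 4 lower of 579. The median was positive in each of the 4 bins of signal (0.15, 0.20, 0.19 and 0.25 from dim to bright), while that of all genes went from 0.06 to -0.10. In the calorie restriction animal it was -0.18. In the ad libitum animal it stayed positive under every alternative normalisation and probe set rule tried, between 0.11 and 0.26.

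Among the decreases besides RUNX2, the orphan receptor NR4A3 read 7.89 and 5.50, with 7.41 and 6.99 in the other animal. CEBPB, a bZIP factor needed for luteinisation in mice, read 12.15 and 10.09 (4.17-fold lower), against 11.82 and 11.10, so that sample 2 was the lowest of the arrays. JUNB, of the AP-1 family, gave -1.90 and its partner FOSL2 -1.09, -2.19 and -2.30 in 3 probe sets. The ETS factor ETV5 gave -1.79 and the SMAD repressor SKIL -1.64, although the means over their 5 probe sets were -0.66 and -0.23. HIF1A, the oxygen-sensing factor, was among the brightest at 12.83 and 11.21 (-1.62). ID4, an inhibitor of helix-loop-helix factors, gave -1.54, -1.59 and -2.39, and the clock factor NPAS2 -1.45 and -0.85.

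The increases were smaller and were spread over families. MYCN read 7.08 in sample 1 and 8.88 in sample 2, with 7.31 and 7.27 in the other animal, but the mean over its 10 probe sets was 0.21. MYOCD, the coactivator of smooth muscle genes, read 6.35 and 8.02, and 5.24 and 5.14 in the other animal. The summed signal of the smooth muscle and pericyte markers, 12732 and 17449, moved with it, and its part in the result was not tested. TEF, a clock output factor, gave 1.62 with a mean over 4 probe sets of 0.43, and CEBPA, a factor of myeloid and fat cells, gave 1.48. The nuclear receptors NR1D2 (1.23), THRB (1.03), PPARG (1.02) and ESR1 (1.02) were higher, but ESR1 came to 0.04 over all its probe sets.

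Homeobox factors had 6 higher (11.8%) and none lower of 51, beside 2.67% and 6.58% of all genes, and 40 of the 51 had a positive change. LHX9, which is needed for the gonad to form, read 5.52 and 7.06, with 4.88 and 4.17 in the other animal, and the mean over its 4 probe sets was 0.46. IRX3 gave 1.29, HOPX 1.22, HOXC6 1.05 and HHEX 1.04, and the sixth, POU2AF3, is a cofactor gathered by its symbol. HOPX and IRX3 had sample 1 as the lowest of the 4 arrays, so that sample 2 did not stand above all the rest for HOPX (6.13, against 7.01 and 6.57). Zinc-finger genes with ZNF symbols had 8 higher (4.04%) and 1 lower (0.505%) of 198, beside 2.67% and 6.58% of all genes. Their median was 0.25, with 159 positive changes. ZNF704 (1.54) and ZNF536 (1.44) had the largest increases by the brightest probe set, but ZNF704 came to 0.50 over its 6 probe sets, and ZNF697 (-1.56) was the lower one.

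Receptors had 10 higher (4.72%) and 28 lower (13.2%) of 212, beside 2.67% and 6.58% of all genes. IL6ST, or gp130, the shared signalling chain of the interleukin-6 family, read 10.41 and 6.65 (13.6-fold lower), beside 9.80 and 9.61. Its other probe sets past the filter gave -3.70 and -2.14. LRP8, a receptor for reelin and apolipoprotein E, gave -2.49 and -2.97, and ROBO1, a slit receptor, -2.56. The endothelin receptor EDNRB (-2.08 and -2.31), the surfactant-regulating receptor ADGRF5 (-1.71 and -1.59) and the natriuretic peptide receptor NPR3 (-1.67, -1.62 and -2.16) were lower by each probe set past the filter. The endothelial marker sum, 3150 and 1493, moved with these genes, and its part was not tested. The muscarinic receptor CHRM3 read 6.17 and 3.87, both under the other animal's 8.15 and 8.30.

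Receptors that were higher included several of myeloid cells. TREM2, a lipid-sensing receptor of macrophages, read 6.14 and 7.80, with 6.17 and 6.10 in the other animal. TLR8, which senses RNA in endosomes, gave 1.36 and the chemokine receptor CCR1 1.19. The macrophage markers fixed for the check of cell types were mixed, with AIF1 and FCER1G higher, CD163 lower and the other 10 of 13 under 2-fold, and their part in these results was not tested. GPR27 (1.59), the glutamate receptor GRM7 (1.32) and the phosphatase receptor PTPRD (1.22, second probe set 0.06) were also higher.

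Intracellular signalling genes had 8 higher and 28 lower of 334, or 2.40% and 8.38%, near the 2.67% and 6.58% of all genes. Phosphatases and kinase inhibitors, many of which damp growth factor signals, had 11 lower and 1 higher of 96. SPRY4, an inhibitor of ERK signalling, read 7.87 and 5.37 (5.65-fold lower), SOCS3, which damps gp130 signalling, 6.86 and 4.73, and PPP1R14C 7.15 and 4.64. The mean over the 4 probe sets of SOCS3 was -0.68. The kinase NUAK1 read 10.37 and 7.36 (8.06-fold lower), with 9.65 and 9.66 in the other animal. PRKAR1A, a regulatory subunit of the cyclic AMP-dependent kinase through which luteinising hormone acts, read 12.40 and 10.36, beside 11.09 and 11.26. Its other probe sets past the filter gave -1.43 and -1.52, and a shared sign was a condition for naming it. ULK4 gave -2.83 with a mean over 4 probe sets of -0.75. On the higher side, MRAP2, an accessory protein of melanocortin receptors, read 5.88 and 7.79, with 5.87 and 4.69 in the other animal. WNK3 (1.63), PDK3, which restrains pyruvate dehydrogenase (1.36), SYK (1.25), AKAP12 (1.24) and DUSP9 (1.20) followed.

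Metabolic enzymes had 16 higher and 44 lower of 320. CYP3A7-CYP3A51P, a readthrough of a fetal steroid hydroxylase gene, read 7.22 and 2.99, with 5.86 and 7.13 in the other animal. The value in sample 2 lay under the 25th percentile of all genes (3.55), as in 8 of the 651 lower genes, so the size of the change is uncertain. Its probes may share signal with the close relative CYP3A4. HSD11B1, which makes active glucocorticoid, read 9.87 and 5.68 (18.3-fold lower), beside 6.85 and 8.10. AKR1B10, an aldo-keto reductase that also reduces retinal, read 11.87 and 8.03 (14.3-fold lower), beside 10.90 and 11.43. The pyrophosphate-producing ENPP1 gave -3.25, -3.72 and -1.13 in 3 probe sets, and ACSL4, which activates arachidonic acid, -2.33. UGP2, which makes UDP-glucose, gave -2.25 by its brightest probe set, but without probe sets of less specific design it came to 0.35, so its direction is not settled.

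Carbohydrate and glycan enzymes had 16 lower and 2 higher of 99. Of glycolysis, the hexokinase HK2 (-2.66) and the pyruvate kinase PKM (-1.27) were lower and the phosphofructokinase PFKP higher (1.10), all by the brightest probe set. The mean over the 3 probe sets of HK2 was -0.63. Others build the sugar chains of secreted proteins and proteoglycans. CHST11 (-1.61 and -1.69), CHST7 (-1.33), CHSY3 (-1.30) and CHPF2 (-1.14 and -1.30) act in chondroitin sulfate synthesis. GALNT2 (-1.35 and -1.52) and GALNT1 (-1.08) start mucin-type chains. HS3ST1, a heparan sulfate sulfotransferase, was higher (1.34 and 1.08). Eicosanoid enzymes were divided. LTA4H, of leukotriene B4 synthesis, read 10.57 and 8.65, whereas LTC4S, of leukotriene C4 synthesis, read 5.30 and 7.48 (4.51-fold higher), with 5.45 and 5.68 in the other animal.

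The mu class of glutathione transferases was higher as a family, in 4 of the 4 genes past the filter. GSTM3 read 6.89 and 8.89, GSTM5 7.46 and 9.25, GSTM2 6.96 and 8.37, and GSTM1 gave 1.12 and 1.22. In the calorie restriction animal GSTM5 read 7.78 and 7.27, and GSTM3 read 7.99 and 6.47. These genes are close copies, so their probes can share signal and the genes may not be separate observations. The flavin monooxygenase FMO4 (1.71) was also higher. A list of antioxidant enzymes, those of the glutathione and thioredoxin systems with HMOX1 and NQO1, had 5 of 20 lower and none higher. Heme oxygenase, HMOX1 (-1.07), and the quinone reductase NQO1 (-1.18) were lower. TXN, thioredoxin, read 11.86 and 9.90 (second probe set -1.14), its reductase TXNRD1 9.45 and 7.54, and GCLC, the first enzyme of glutathione synthesis, 10.59 and 8.17 (second probe set -1.98). For TXN the calorie restriction samples, 9.78 and 10.38, were close to sample 2, and it was sample 1 that stood apart.

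Adhesion and junction genes had 9 higher and 19 lower of 121. CDH3, or P-cadherin, read 5.09 and 7.21, with 5.04 and 4.84 in the other animal. NCAM1 was higher by its brightest probe set (1.66), with a mean over 7 probe sets of 0.54, and LRRN3 by both, at 1.38 by the brightest. TSPAN13, a tetraspanin, read 6.88 and 3.99 (7.43-fold lower), beside 6.30 and 6.40, ITGA6, a laminin receptor chain, gave -1.94, and PCDH17, a protocadherin, -1.90.

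Cytoskeletal genes had 7 higher (4.46%) and 17 lower (10.8%) of 157, beside 2.67% and 6.58% of all genes. The tubulin TUBB2A read 9.90 and 6.59 (9.91-fold lower), beside 8.75 and 9.25. The troponins TNNI3 and TNNT1, of striated muscle, read 9.86 and 6.93, and 8.49 and 6.50, and in both the calorie restriction samples lay nearer to sample 2. LMOD1, of smooth muscle filaments (1.59), the actin-capping CAPG (1.43) and MYO15B (1.32) were higher. Non-coding RNAs were mostly dim: 129 of 1864 passed the filter, with 5 higher (3.88%) and 2 lower (1.55%). TAPT1-AS1 (1.15), CCDC18-AS1 (1.15) and LINC01023 (1.12) were the largest increases and LINC01279 (-1.12) a decrease.

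Among the 7370 genes outside these classes, 136 were higher and 380 lower. Families seen among them were then counted whole, so their choice followed their values and the counts are descriptions only. Over all genes 6.58% were lower and 2.67% higher. The machinery that moves proteins from the ER to the Golgi had 12 of 46 genes lower (26.1%) and none higher. It had 43 negative changes and a median of -0.57. KDELR3, which returns escaped proteins to the ER, read 9.67 and 7.21 (second probe set -2.28), with 8.22 and 8.87 in the other animal. The coat proteins SEC24D (-1.19) and SEC23B (-1.05 and -1.70), the cargo receptors SURF4 (-1.20) and LMAN2 (-1.26) and ERGIC1 (-1.72) were lower. The translocation and N-glycosylation machinery of the ER had 8 of 45 lower and 1 higher (median -0.49), with TUSC3, of the oligosaccharyl transferase, at -1.69 and -1.56, and UGGT2, a glycoprotein folding sensor, at -1.73. The higher one, ALG13 (1.17), had another probe set at -0.35.

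Enzymes that fold and modify secreted proteins were lower in part. Disulfide isomerases and related oxidoreductases had 5 of 19 lower and 1 higher (median -0.67), with P4HB at -1.45 and -3.05. Collagen hydroxylases and procollagen enhancers had 6 of 13 lower and none higher (median -0.73). PCOLCE2, which speeds procollagen processing, read 9.22 and 6.84, and the lysyl hydroxylase PLOD2 9.48 and 7.71. The prolyl hydroxylase P3H2 gave -2.35. P4HA2 gave -2.28 by its brightest probe set and -0.23 by the second.

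Some small families showed larger medians. Others did not: 7 annexins had a median of -0.23 (1 lower), and 8 homeobox A to D cluster genes 0.34 (1 higher). S100 calcium-binding proteins had 5 of 8 lower (62.5%, beside 6.58% of all genes) and none higher (median -1.16). Among the lower were S100A2 (-1.84), S100A1 (-1.81) and S100A10 (-1.06). Beta-tubulins had 4 of 6 lower (median -1.07), and the 6 all had negative changes, as close relatives whose probes can share signal. TUBB3, among the 4, is also in the nerve and Schwann marker list. The summed signal of that list was 1498 and 611, and its part was not tested. Fc receptors and other leukocyte immunoglobulin-like receptors and surface genes had 10 of 17 higher and none lower, with a median of 1.08. The list reached beyond the receptor families, to CD48, CD52, CD84, LAT2, LY86 and SIRPA, all of them higher. Of the LILR genes only LILRA4 passed 2-fold. LILRA2, LILRA6, LILRB1, LILRB2 and LILRB3 gave 0.11 to 0.56. FCGR2B, the inhibitory IgG receptor, read 7.15 and 9.22, and LY86, a partner of a Toll-like receptor, 7.28 and 9.26. FCGR2C, the near-identical neighbour of FCGR2B, read 6.52 and 8.65, but its other probe sets gave 1.20 and -0.28. LILRA4, of plasmacytoid dendritic cells, read 5.29 and 7.37. In the calorie restriction animal FCGR2B read 7.13 and 6.89, close to sample 1. The macrophage markers, with a summed signal of 3765 and 5285 and AIF1 and FCER1G higher, moved with this group, and FCER1G is in both lists. Of 14 T and NK cell markers GNLY was lower and none higher, with a median change of 0.09. The part of either list in the result was not tested. Splicing proteins of the SR, hnRNP and related families had 4 of 84 higher (4.76%, beside 2.67% of all genes) and none lower (median 0.15), led by SRSF11 (1.31, with another probe set at 0.38) and FUBP1 (1.25, with another at -0.06).

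**Figure D5:**
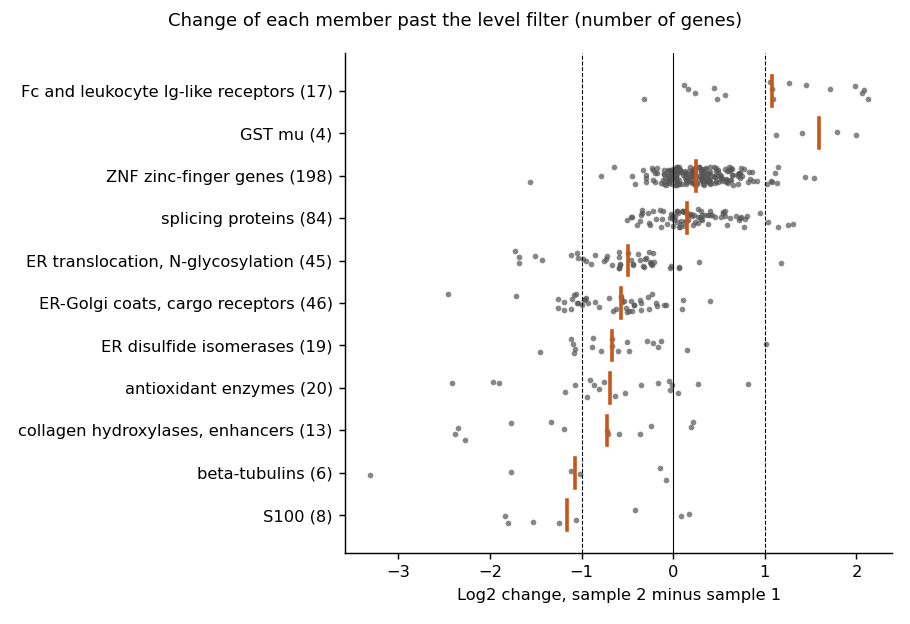
Log2 change from sample 1 to sample 2 of the ad libitum animal for each member past the level filter of 11 gene families, with the number of genes in brackets. Grey points are genes, the orange bar is the family's median, and dashed lines mark 2-fold; Fc and leukocyte receptors and GST mu genes lie mostly to the right, and ER, collagen-modifying, tubulin and S100 genes mostly to the left.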

How the data were processed

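The authors deposited 1 log2 signal for each probe set and array, from RMA in Affymetrix Power Tools, per the submitters' processing notes. The sources used here give no version. The precision is limited by the number of arrays. Of 54675 probe sets, 62 controls were left out, and 41091 had 1 gene symbol in the platform annotation, 1801 several and 11721 none; only the first were used. Of 19775 symbols, 15504 (78.4%) were found among the gene names of RefSeq's vervet assembly mChlSab1.0.hap1. Probe sets were designed on human genes, and mismatches to vervet RNA can lower a signal. No coordinates or sequences are given, since no genome of the arrays' build was used here.

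A gene's change is sample 2 minus sample 1 in whichever of its probe sets was brightest on average in the 4 arrays. Genes under the median mean were left out of counts, except in the cell type marker lists and where the text says so. The mean took in the calorie restriction arrays, so a gene could pass by its signal there. Counts used Python 3.11.15, and alternatives used limma 3.58.1 in R 4.3.3; the counting was tested on simulated data. Classes were built from gene family symbols. Named genes were the 6 largest changes each way per class (3 for adhesion, cytoskeleton and non-coding RNAs) whose other probe sets past the filter agreed in direction, the 10 each way with the largest smallest change over 2 or more probe sets, and genes with opposed probe sets. Genes already ranked first for their size and placeholder symbols were passed over in these ranks. Other genes illustrate their group. Members and lists were chosen with earlier results of these data known.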

Additional observations from a re-analysis of the deposited data

Results flagged for a closer look

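For 10 of the 108 genes named by the rule, and for 8 others named in the report, the change from sample 1 to sample 2 was at least 2-fold in both animals and in opposite directions. Of all genes, 0.496% were higher and 0.738% lower past 2-fold between the calorie restriction animal's samples. The shares of all genes that were opposed, or that went the same way, in both animals were not counted. Each animal gave 1 array per sample number, so the difference between the animals was not tested. In the ad libitum and then the calorie restriction animal, HSD11B1 changed by -4.20 and 1.25, CYP3A7-CYP3A51P by -4.24 and 1.26, and CXCL14 by -3.92 and 1.29. LRP8 changed by -2.49 and 1.14, and ACSL4 by -2.33 and 1.05. The opposite pair was found in PLA2G1B (2.00 and -1.15), MRAP2 (1.91 and -1.17), HS3ST1 (1.34 and -1.08), DUSP9 (1.20 and -1.01) and SBK1 (1.15 and -1.30). Among the others, INHA changed by -5.32 and 1.10, CYP3A4 by -3.35 and 1.36, MFAP5 by -1.89 and 1.31, S100A2 by -1.84 and 1.14, GSTM3 by 2.00 and -1.53, and CXCL12 by 1.46 and -1.44. GATM changed by 1.28 and -1.25, and POU2AF3 by 1.12 and -1.001. Without _x_at and _s_at probe sets GSTM3 and GATM turned direction in the ad libitum animal. There the second probe set of CYP3A4 gave 0.10. In sample 2 CYP3A7-CYP3A51P lay under the 25th percentile of all genes. The labels do not give the order in which either animal's samples were collected.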

How the results depend on the processing

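No paired analysis was possible because each sample number of the animal has 1 array. With the level filter at the 75th percentile, 112 genes were higher, 97.1% of checkable genes agreed across probe sets, class members past 2-fold numbered 230, and higher and lower counts were 6 and 10 for transporters, 14 and 42 for secreted factors and 17 and 19 for transcription factors. Agreement was 75.9% with the filter at the 25th percentile, 62.5% with none and 79.9% without _x_at and _s_at probe sets. With a gene's probe sets averaged, 152 genes were higher and 255 class members passed 2-fold, with 5 and 13 transporters, 18 secreted factors higher, and 14 and 19 transcription factors. At 1.5-fold, 943 genes were higher and 1505 lower, agreement was 85.3%, and 855 class members passed, with 21 and 56 transporters, 56 secreted factors higher, and 114 and 60 transcription factors. At 3-fold the counts were 62 and 250, 96.2% and 165, with 1 and 8, 12 and 42, and 4 and 11 in those classes. After a repeat of quantile normalisation 49 transcription factors were higher. Genes also 2-fold from both calorie restriction samples, a count added after seeing the data, were 156 higher and 336 lower. Without _x_at and _s_at probe sets 15 of 194 named genes turned: UGP2 to 0.35, ABCC3 to 0.23, ACAN to 0.29, F5 to 0.037, FCGR2C to -0.28, FUBP1 to -0.061, GALNT2 to 0.049, GATM to -0.019, GDF15 to 0.093, GSTM3 to -0.12, HOPX to -0.016, P3H2 to 0.10, PTN to -0.22, SEC23B to 0.20 and TUSC3 to 0.075. ALG13 turned to -0.35 with the probe set brightest in the calorie restriction animal. Of the 230 named genes, 95 moved by 0.5 or more when a gene's probe sets were averaged and 83 came under 2-fold, none in the other direction; none moved that far under the 3 other normalisations.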
